A study of Homo sapiens with 9 samples.

Results

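HOX genes encode homeodomain transcription factors that give cells their position along the body axis, and in human they lie in 4 clusters, HOXA, HOXB, HOXC and HOXD. Within a cluster the genes are numbered from the anterior to the posterior end, and genes with the same number in different clusters are paralogues. The clusters are classic targets of Polycomb repression and of activation by the KMT2A and KMT2B histone methyltransferases, and adult epithelia and carcinomas keep parts of them switched on. BAP1 is the deubiquitinase of the PR-DUB complex, which removes the ubiquitin mark that Polycomb places on a core histone. MBD5 is a methyl-CpG-binding domain protein known to associate with that complex.

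The arrays compared HCCC-9810, a human cholangiocarcinoma cell line, with BAP1 siRNAs (si-BAP1), MBD5 siRNAs (si-MBD5) or a control RNA (si-Control), with 3 biological replicates in each group. The control is named si-Control in the titles and a control shRNA elsewhere in the labels. The 3 groups share the cell line, so p-values measure the spread between samples of 1 line. The members were all probe sets, the units that an Affymetrix array reports, whose single gene symbol was HOXA, HOXB, HOXC or HOXD followed by a number. There were 47 such probe sets for 27 genes, of 44988 probe sets for 18132 genes in all. RefSeq lists 39 protein-coding HOX cluster genes. The other 12 were not analysed here, namely HOXD3, HOXD11 and every HOXA gene other than HOXA2, so the HOXA cluster is described by 1 gene only.

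The deposited values are intensities on a linear scale, and array medians lay between 36.9 and 38.2. Of 5 measured markers of biliary epithelium, KRT7 (930 to 1146) and SOX9 (34.1 to 48.0) lay above the 40th percentile of all probe sets, and KRT19 (18.4 to 23.2), EPCAM (7.40 to 12.2) and CFTR (8.85 to 13.1) lay below it. The brighter MBD5 probe set read 6.20, 6.20 and 6.11 in si-MBD5 arrays against 7.16, 7.06 and 6.90 in si-Control arrays, far below the 40th percentile, and BAP1 was not analysed here. ACTB signal at the 3' end over that at the 5' end, a measure that moves with RNA degradation, was 10.8 to 11.4 in si-BAP1, 11.6 to 13.0 in si-MBD5 and 11.8 to 12.8 in si-Control arrays. The summed intensity of 4 fibroblast markers, 2 of them above the 40th percentile, was 122 to 129 in si-BAP1, 115 to 126 in si-MBD5 and 103 to 113 in si-Control arrays. That of the 5 biliary markers, most of it KRT7, was 1045 to 1133, 1012 to 1095 and 1145 to 1230 in the same groups. The sums of hepatocyte, endothelial and immune markers overlapped between the groups, and no marker was at 0. The part of RNA quality and of these markers in the HOX results was not tested.

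RefSeq promoter windows (GRCh38.p14, from 250 bases before a gene's start to 50 bases after it) were matched for 10 of the 27 genes. Those below are shown because HOXC4 and HOXC5 have the same window, and the RefSeq gene record of HOXC6 begins at the same base. HOXD8 and HOXD10 are HOXD genes read above the 40th percentile, and HOXD13 and HOXD1 are HOXD genes read below it. Capitals mark CG dinucleotides, the sites of DNA methylation.
HOXC4 and HOXC5 (chr12:54016638-54016937, plus strand): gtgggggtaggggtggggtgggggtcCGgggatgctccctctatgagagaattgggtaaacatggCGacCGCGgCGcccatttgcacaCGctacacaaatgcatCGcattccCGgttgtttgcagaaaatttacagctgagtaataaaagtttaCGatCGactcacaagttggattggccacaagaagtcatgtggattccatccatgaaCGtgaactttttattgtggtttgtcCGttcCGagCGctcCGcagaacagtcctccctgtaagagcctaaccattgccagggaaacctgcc
HOXD8 (chr2:176129455-176129754, plus strand): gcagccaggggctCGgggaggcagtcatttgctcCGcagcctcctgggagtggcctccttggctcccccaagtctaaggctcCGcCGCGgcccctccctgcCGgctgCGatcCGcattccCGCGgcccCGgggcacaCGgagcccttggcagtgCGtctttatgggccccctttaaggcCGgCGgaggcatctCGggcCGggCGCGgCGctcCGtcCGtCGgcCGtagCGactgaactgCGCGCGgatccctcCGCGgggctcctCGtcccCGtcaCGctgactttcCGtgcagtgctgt
HOXD10 (chr2:176116528-176116827, plus strand): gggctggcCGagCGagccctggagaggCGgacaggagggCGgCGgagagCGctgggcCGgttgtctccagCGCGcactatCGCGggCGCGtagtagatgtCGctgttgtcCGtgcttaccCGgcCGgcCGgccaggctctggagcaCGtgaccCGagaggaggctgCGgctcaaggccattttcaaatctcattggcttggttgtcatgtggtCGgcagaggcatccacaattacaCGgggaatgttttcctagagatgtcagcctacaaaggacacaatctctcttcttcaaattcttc
HOXD13 (chr2:176092471-176092770, plus strand): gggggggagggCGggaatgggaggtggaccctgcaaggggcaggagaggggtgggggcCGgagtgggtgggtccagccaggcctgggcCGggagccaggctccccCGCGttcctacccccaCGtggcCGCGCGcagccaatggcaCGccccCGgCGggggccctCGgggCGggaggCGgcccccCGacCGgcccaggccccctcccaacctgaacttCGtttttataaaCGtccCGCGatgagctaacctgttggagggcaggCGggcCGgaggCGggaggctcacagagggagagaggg
HOXD1 (chr2:176188418-176188717, plus strand): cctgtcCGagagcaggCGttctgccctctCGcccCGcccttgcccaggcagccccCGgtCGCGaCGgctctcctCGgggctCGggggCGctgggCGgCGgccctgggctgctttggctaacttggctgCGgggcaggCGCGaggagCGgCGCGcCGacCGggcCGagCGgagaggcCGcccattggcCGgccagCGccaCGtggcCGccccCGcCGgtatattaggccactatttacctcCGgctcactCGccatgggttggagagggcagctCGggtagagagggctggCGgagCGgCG

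The shared HOXC4 and HOXC5 window held 15 CG dinucleotides, that of HOXD8 34 and that of HOXD10 23. The windows of HOXD13 and HOXD1, the genes below the percentile, held 24 and 36, and the median over 34796 distinct RefSeq windows was 14. The CG counts of the matched genes above and below the percentile thus overlapped, since the windows of HOXD12, HOXD4, HOXA2 and HOXB1, also below it, held 19, 4, 11 and 11. The 10 windows were searched on both strands for TATAAA (the TATA box), CCGCCAT (the core of the YY1 site) and TGATTNAT (a composite site of HOX and PBX proteins). HOXD13 held TATAAA, once on each strand, and HOXA2 held TGATTNAT. No other match was present, where 11.6%, 5.55% and 2.82% of all RefSeq windows held these 3 motifs.

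Which HOX genes gave a signal was read cluster by cluster. A gene was taken as above background if its brightest probe set had a mean over all 9 arrays above the 40th percentile of the table, which was 25.5. This held for 19 of the 27 HOX genes (70.4%), close to the 68.6% of all 18132 genes. By cluster it held for 8 of 10 HOXB genes, 8 of 9 HOXC genes, 3 of 7 HOXD genes and 0 of 1 HOXA gene. By position it held for 1 of 5 anterior genes (groups 1 to 3), 10 of 11 central genes (groups 4 to 8) and 8 of 11 posterior genes (groups 9 to 13).

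The percentile is not a detection call. Probe sets of CD3E, a T cell receptor subunit, and of VWF, an endothelial clotting factor, also lay above it, at 24.6 to 33.6 and 39.5 to 50.1. At the 60th percentile, which was 59.3, 9161 of all 18132 genes remained. Of the 27 HOX genes, 12 remained. These HOX genes were the 8 HOXC genes above the 40th percentile, HOXB7 and HOXB9 of the HOXB cluster, and HOXD8 and HOXD10 of the HOXD cluster. HOXB3, HOXB4, HOXB5, HOXB6, HOXB8, HOXB13 and HOXD9 lay between the 2 percentiles. The gene just inside the 40th percentile was HOXB3, a hindbrain patterning gene, with a mean of 33.9, and the one just outside it was HOXD4 with a mean of 24.4.

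**Figure D1:**
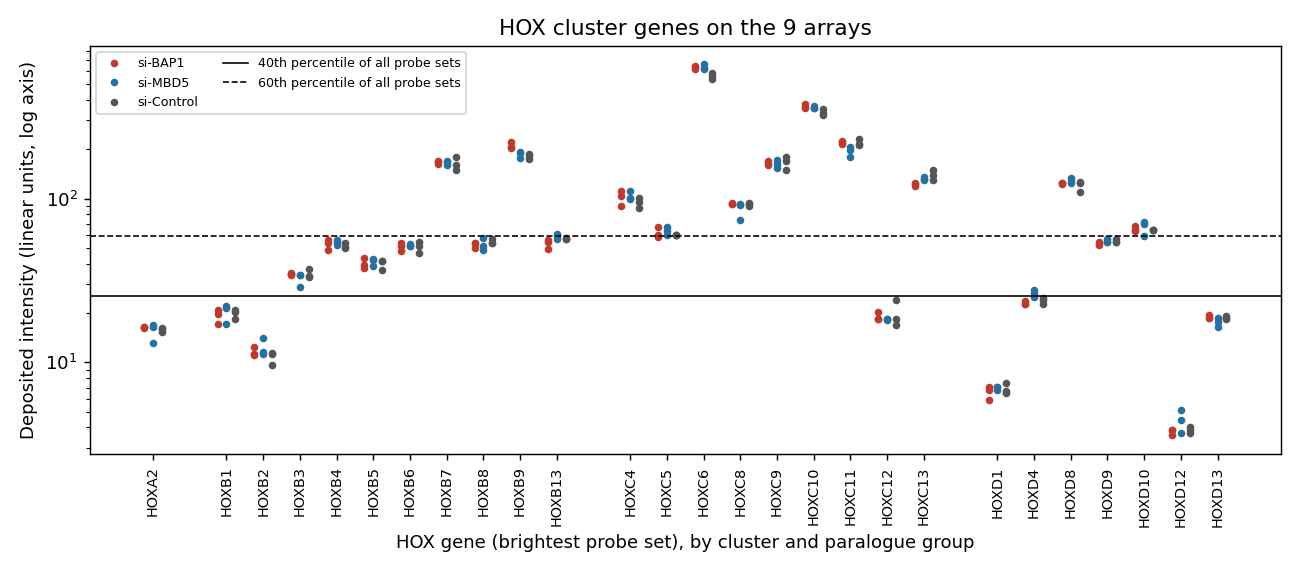
Intensity of the brightest probe set of each of the 27 HOX genes (log axis, linear units) on the 3 si-BAP1, 3 si-MBD5 and 3 si-Control arrays, 1 point per array, ordered by cluster and paralogue group. The solid line is the 40th and the dashed line the 60th percentile of all probe sets; all 8 HOXC genes above the solid line also have means above the dashed one, against 2 of 8 HOXB genes. Heights of different genes depend on their probes and are not compared.

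The 8 genes below the percentile were low in all 3 groups. They were HOXA2, which patterns the branchial arches, HOXB1 and HOXB2, which pattern the hindbrain, HOXC12, HOXD1 and HOXD4, and HOXD12 and HOXD13, which shape the digits. Over their 12 probe sets the single-array values ran between 3.59 and 27.6, and only HOXD4 had arrays over 25.5. HOXD4 read 27.6, 25.2 and 26.5 in si-MBD5 arrays against 22.7, 24.7 and 24.0 in si-Control arrays, and 23.8, 22.6 and 22.7 in si-BAP1 arrays. Its si-MBD5 arrays lay above those of both other groups. The dimmer HOXD13 probe set read 9.58, 8.73 and 8.98 in si-BAP1 arrays against 7.55, 7.72 and 7.47 in si-Control arrays, and these groups did not overlap. With every probe set fitted and no filter, its log2 fold change was 0.090 (SE 0.031, limma adjusted p = 0.0992), and 0.26 without the added constant. No probe set of these 8 genes passed an adjusted p of 0.05 in any of the 3 comparisons, with or without the added constant.

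In si-BAP1 cells, 3 of the 19 HOX genes above the percentile changed: HOXB9 and HOXC6 were higher and HOXC13 lower. On the scale tested these were 1.15-fold for HOXB9, 1.12-fold for HOXC6 and 0.89-fold for HOXC13. In the same comparison 23.5% of all 12434 genes passed (12.4% higher and 11.1% lower), so the HOX share, 15.8%, was no higher than that of genes at large. The test was limma on log2(intensity + 16) over all 9 arrays, with each gene read from its brightest probe set and p-values adjusted over all 12434 genes. Fold changes on this scale are smaller than ratios of the intensities.

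HOXB9, a posterior gene that in breast and lung carcinoma has been tied to invasion, read 221, 205 and 206 in si-BAP1 arrays against 175, 183 and 186 in si-Control arrays. All 3 si-BAP1 arrays lay above all 3 si-Control arrays. The means were 211 ± 9.3 and 181 ± 5.7 (SD, n = 3 each), and the log2 fold change was 0.20 (SE 0.047, limma adjusted p = 0.00664). HOXB9 was read by 1 probe set. It passed in this comparison under each of 23 other settings, at log2 values of 0.16 to 0.22.

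HOXC6, a central gene that is often raised in prostate carcinoma, read 637, 621 and 641 in si-BAP1 arrays against 587, 561 and 540.0 in si-Control arrays. The groups did not overlap. The means were 633 ± 11 and 563 ± 23 (SD, n = 3 each), with a log2 fold change of 0.17 (SE 0.040, limma adjusted p = 0.00717). Its other probe set above the percentile read 579, 569 and 579 in si-BAP1 arrays against 576, 563 and 534 in si-Control arrays. Those groups overlapped, and the log2 fold change was 0.046 (limma adjusted p = 0.485 over all probe sets). The HOXC6 rise in si-BAP1 cells was therefore seen on 1 of 2 probe sets, and the mean of both gave log2 0.11 (limma adjusted p = 0.0421). The third HOXC6 probe set was dim, at 13.4 to 17.3 over all 9 arrays.

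HOXC13, which drives hair and nail keratin genes, read 125, 123 and 119.9 in si-BAP1 arrays against 149, 140.1 and 130.2 in si-Control arrays. Every si-BAP1 array was below every si-Control array; the si-Control arrays spread more widely than the si-BAP1 arrays. The means were 122 ± 2.4 and 140 ± 9.5 (SD, n = 3 each), and the log2 fold change was -0.17 (SE 0.049, limma adjusted p = 0.0220). The call was lost without si-BAP1 replicate 2 (adjusted p = 0.0508), si-BAP1 replicate 3 (0.0831), si-Control replicate 1 (0.0995) or si-Control replicate 2 (0.0691).

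The remaining 16 HOX genes did not pass in si-BAP1 cells. Their log2 fold changes lay between -0.077 (HOXB13) and 0.11 (HOXC10), with adjusted p-values of 0.0864 to 0.999. No 95% confidence interval among them reached below -0.19 or above 0.24 log2. HOXC10, a posterior gene active in hindlimb motor neurons, was nearest to passing. It read 355, 361 and 377 in si-BAP1 arrays against 354, 334 and 323 in si-Control arrays, and these groups did not overlap. Its log2 fold change of 0.11 (SE 0.043, limma adjusted p = 0.0864) passed in 2 of 23 other settings. These were array weights (0.14, adjusted p = 0.00385) and leaving out si-Control replicate 1 (0.14, adjusted p = 0.0402). The unadjusted p was below 0.05 for 4 of the 19 HOX genes, beside 4161 of all 12434 genes. For 6 of 19 (31.6%) the si-BAP1 and si-Control arrays did not overlap, where this held for 37.5% of all genes.

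**Figure D2:**
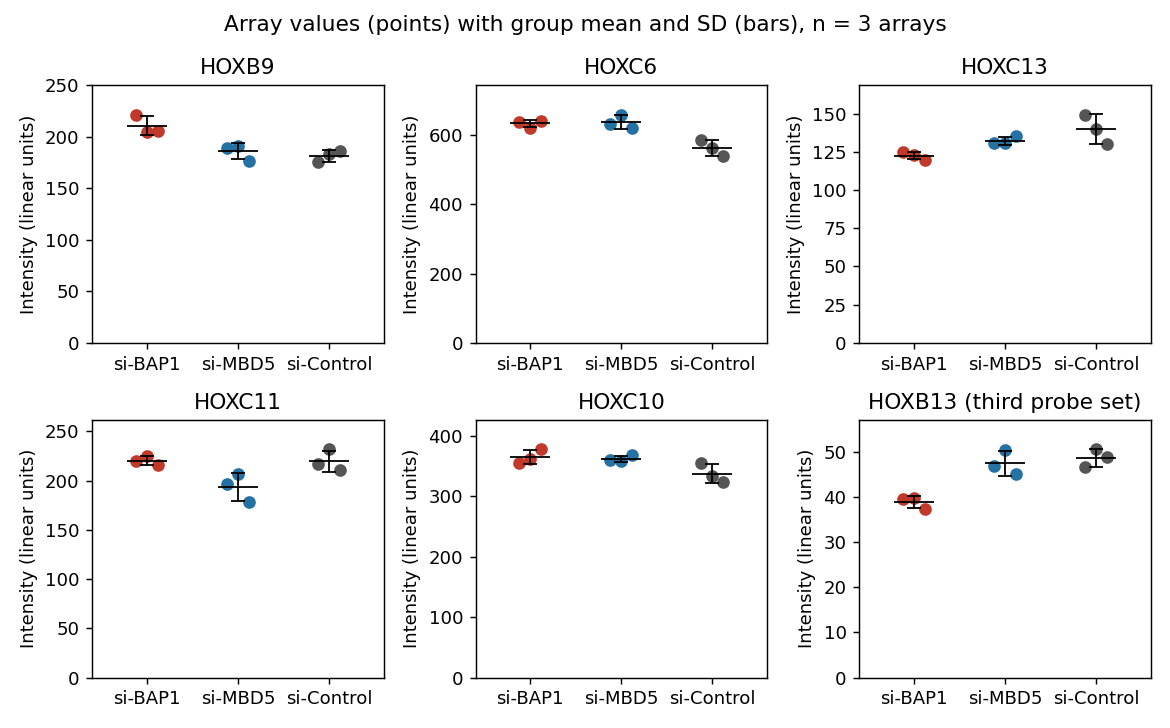
Intensity (linear units, axes from 0) of 6 HOX probe sets on each array of si-BAP1, si-MBD5 and si-Control cells, with the mean and SD of each group (n = 3). The si-BAP1 arrays lie above si-Control for HOXB9, HOXC6 and HOXC10 and below it for HOXC13 and for the HOXB13 probe set shown, and the si-MBD5 arrays lie above si-Control for HOXC6 and HOXC10 and below it for HOXC11.

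HOXB13, a partner of the androgen receptor in the prostate, was read by 4 probe sets that gave different sizes of change. On the brightest, the si-BAP1 arrays (55.9, 48.8 and 54.1) lay just below the si-Control arrays (56.4, 56.4 and 57.3), and the log2 fold change was -0.077 (SE 0.050, limma adjusted p = 0.324). The third read 39.6, 39.8 and 37.4 in si-BAP1 arrays, 46.9, 50.3 and 44.9 in si-MBD5 arrays and 46.6, 50.5 and 48.8 in si-Control arrays. There the si-BAP1 arrays stood apart from both other groups. With every probe set fitted on its own and p-values adjusted over 29584 of them, this probe set fell by 0.23 on the log2 scale against si-Control (SE 0.049, adjusted p = 0.00406) and by 0.21 against si-MBD5 (adjusted p = 0.0221). The other 2 did not pass, with log2 values of -0.17 and -0.024 against si-Control, so all 4 were negative and 1 passed. The mean over the 4 gave -0.13 (limma adjusted p = 0.0434).

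**Figure D3:**
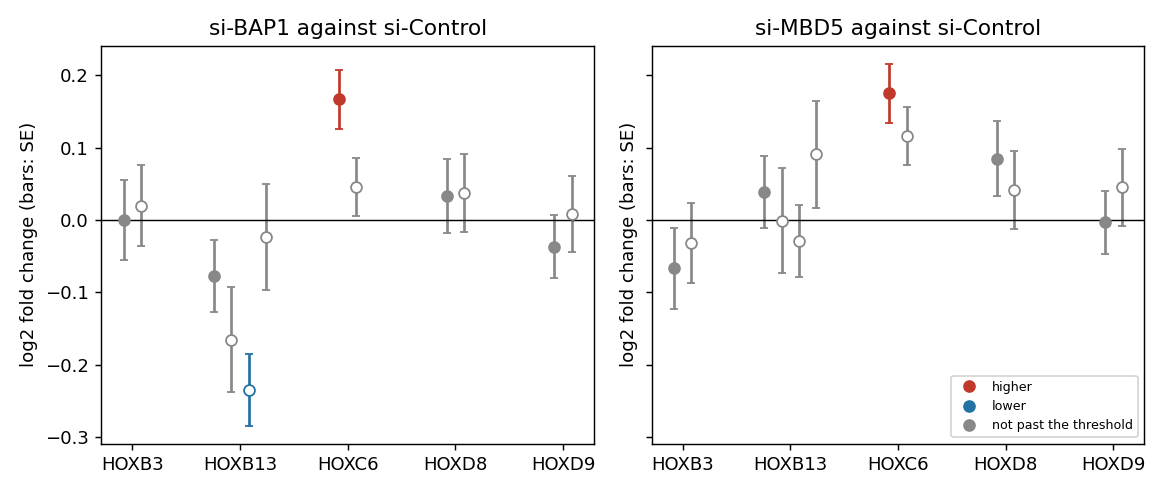
Log2 fold change with its SE (bars) of each probe set above the 40th percentile for the 5 HOX genes that have more than 1 such probe set, in si-BAP1 (left) and si-MBD5 (right) against si-Control. Filled points are the brightest probe set of a gene; in si-BAP1 cells 1 of 4 HOXB13 probe sets is lower and 1 of 2 HOXC6 probe sets higher at an adjusted p below 0.05.

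In si-MBD5 cells, 2 of the 19 HOX genes changed, both in the HOXC cluster: HOXC6 was higher and HOXC11 lower. The share of 10.5% stood beside 16.3% of all genes tested (7.29% higher and 8.99% lower). HOXC6 read 631, 659 and 621 in si-MBD5 arrays against the 587, 561 and 540.0 of si-Control, with no overlap. The means were 637 ± 20 and 563 ± 23 (SD, n = 3 each), with a log2 fold change of 0.18 (SE 0.040, limma adjusted p = 0.00845). This call held under each of 23 other settings. On its other bright probe set HOXC6 read 625, 603 and 589 in si-MBD5 arrays against 576, 563 and 534 in si-Control arrays, which also did not overlap, and the log2 fold change was 0.12 (limma adjusted p = 0.0762 over all probe sets). The si-BAP1 and si-MBD5 comparisons use the same 3 si-Control arrays, so the 2 HOXC6 calls are not independent of each other.

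HOXC11, a posterior gene expressed in the developing hindlimb, read 197, 206 and 178 in si-MBD5 arrays against 217, 232 and 211 in si-Control arrays. The groups did not overlap, and si-MBD5 replicate 3 was the lowest array. The means were 194 ± 14 and 219.8 ± 11 (SD, n = 3 each), with a log2 fold change of -0.17 (SE 0.053, limma adjusted p = 0.0453). The call rested close to the threshold: it was lost in 12 of 23 other settings, with adjusted p-values of 0.00419 to 0.194 over all of them. It was lost without si-MBD5 replicate 1 (adjusted p = 0.0871) or 3 (0.161), without si-Control replicate 1 (0.0833) or 2 (0.194), and without si-BAP1 replicate 1, 2 or 3 (0.0599, 0.0544 and 0.0656). The second HOXC11 probe set was dim, with means of 24.0 in si-MBD5 and 23.8 in si-Control arrays.

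The remaining 17 HOX genes did not pass in si-MBD5 cells, with log2 fold changes between -0.090 (HOXC8) and 0.11 (HOXC4) and adjusted p-values of 0.148 to 0.975. Their 95% confidence intervals stayed between -0.22 and 0.26 log2. HOXC8, a thoracic patterning gene, read 91.0, 92.0 and 74.0 in si-MBD5 arrays against 93.8, 92.0 and 89.6 in si-Control arrays, and its si-MBD5 replicate 3 was the lowest array. HOXC10 read 359, 358 and 367 in si-MBD5 arrays, all above the 354, 334 and 323 of si-Control (log2 0.098, limma adjusted p = 0.148). HOXB9, higher in si-BAP1 cells, read 189, 191 and 177 in si-MBD5 arrays and overlapped si-Control (log2 0.032, limma adjusted p = 0.713). The unadjusted p was below 0.05 for 3 of the 19 HOX genes, beside 3535 of all 12434 genes. The arrays did not overlap for 3 of 19 (15.8%), HOXC6, HOXC10 and HOXC11, where this held for 30.4% of all genes.

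**Figure D4:**
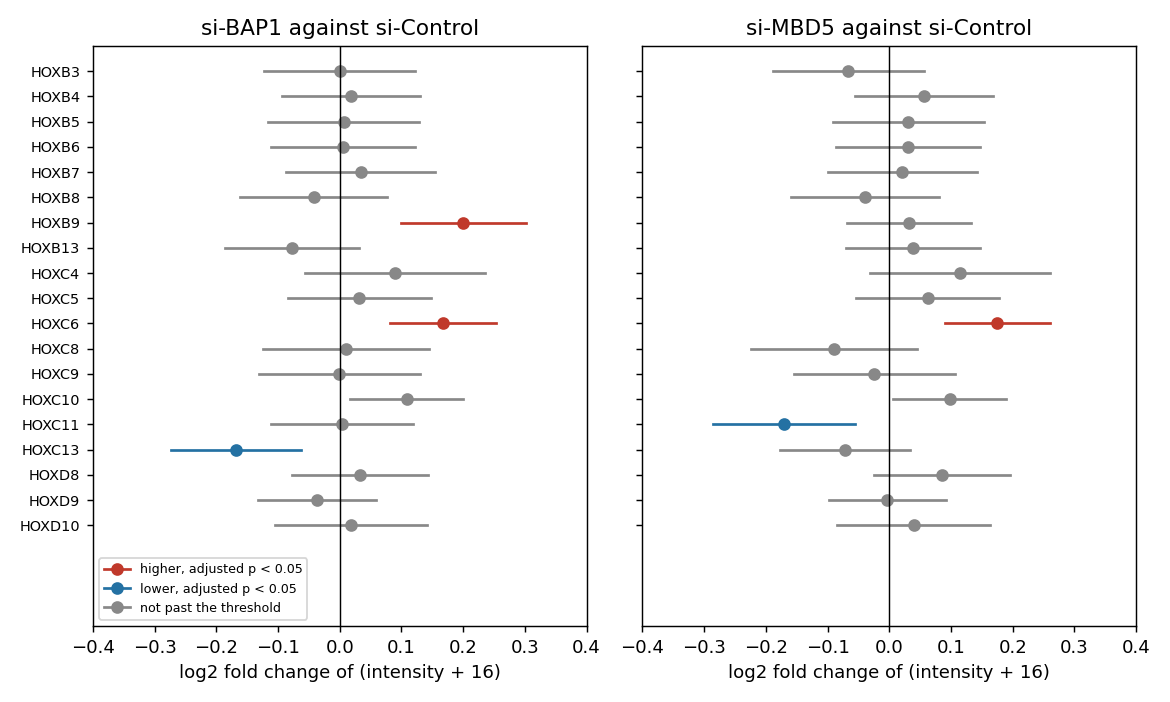
Log2 fold change of (intensity + 16) with its 95% confidence interval for the 19 HOX genes above the 40th percentile, in si-BAP1 (left) and si-MBD5 (right) against si-Control, from limma over all 9 arrays. Red marks genes higher and blue genes lower at an adjusted p below 0.05; all values lie between -0.17 and 0.20.

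On their brightest probe sets, the other HOXB genes above the percentile stayed close to si-Control in both knockdowns, and their groups overlapped. HOXB7, a central gene tied to growth of breast carcinoma cells, read 168, 169.6 and 163 in si-BAP1 arrays, 167, 169.7 and 159.5 in si-MBD5 arrays and 150.3, 159 and 179.9 in si-Control arrays. The si-Control arrays held both its lowest and its highest value. HOXB4, which in blood supports stem cell expansion, lay between 48.2 and 55.6 over all 9 arrays, with both ends of that range in si-BAP1 arrays. Its dim probe set read 16.1, 14.5 and 15.1 in si-BAP1 against 14.4, 12.7 and 11.8 in si-Control arrays, without overlap. The si-MBD5 arrays (16.1, 13.4 and 18.7) overlapped si-Control. With every probe set fitted and no filter, the log2 values were 0.11 and 0.14 (limma adjusted p = 0.291 and 0.183). HOXB5 lay between 36.7 and 43.4, HOXB6 between 46.3 and 54.2 and HOXB8, a myeloid progenitor gene, between 48.5 and 57.5 over all 9 arrays. HOXB3 lay between 28.8 and 37.2, with its lowest array in si-MBD5 and its highest in si-Control. On the brightest probe sets the log2 values of these 6 genes were -0.042 to 0.034 in si-BAP1 and -0.067 to 0.056 in si-MBD5 cells.

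HOXC9, a thoracic patterning gene, read 165, 161 and 170.3 in si-BAP1 arrays, 162, 171.5 and 154 in si-MBD5 arrays and 179, 170.7 and 149 in si-Control arrays, and all groups overlapped (log2 -5.0e-04 and -0.024). Of the HOXD genes, HOXD8 read 124, 124 and 122 in si-BAP1 arrays, 133, 124 and 128 in si-MBD5 arrays and 110.2, 127 and 124 in si-Control arrays. Its largest value was log2 0.085 in si-MBD5 (limma adjusted p = 0.308). HOXD9, a limb patterning gene, read 52.2, 54.1 and 53.5 in si-BAP1 arrays against 56.9, 54.2 and 54.3 in si-Control arrays, without overlap, at log2 -0.037 (limma adjusted p = 0.629). Its other probe set above the percentile read 37.4, 36.1 and 37.4 against 39.3, 33.1 and 37.8, and those groups overlapped. Its log2 value was 0.0082 (limma adjusted p = 0.940 over all probe sets). HOXD10, a limb and motor neuron gene, read 63.5 to 68.1 in si-BAP1, 59.3 to 71.8 in si-MBD5 and 63.9 to 64.7 in si-Control arrays (log2 0.018 and 0.039).

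HOXC4, HOXC5 and HOXC6, whose RefSeq records begin at the same base, differed in what passed. HOXC4 read 90.3, 103 and 111 in si-BAP1 arrays, 99.3, 111 and 100.1 in si-MBD5 arrays and 95.4, 100.1 and 87.4 in si-Control arrays, and the groups overlapped (log2 0.090 and 0.11, limma adjusted p = 0.402 and 0.301). HOXC5 read 58.4 to 67.5 in si-BAP1 arrays, 60.1 to 67.1 in si-MBD5 arrays and 60.1 in each si-Control array (log2 0.032 and 0.062), and it passed in neither comparison. All 6 values of HOXC4, HOXC5 and HOXC6 against si-Control were positive, and those of HOXC6 passed. Whether HOXC6 differed from its neighbours was not tested. The 3 equal HOXC5 values are an instance of a wider feature of the deposited table. In 29 of 47 HOX probe sets (61.7%), and in 57.7% of all probe sets, at least 2 of the 9 arrays carried exactly the same value, so some group SDs may be too small.

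By cluster, the calls came from HOXB and HOXC. Against si-Control, 5 of 8 HOXB, 6 of 8 HOXC and 2 of 3 HOXD genes had positive log2 values in si-BAP1 cells, with medians of 0.0057, 0.021 and 0.018. In si-MBD5 cells 6 of 8, 4 of 8 and 2 of 3 were positive, with medians of 0.031, 0.019 and 0.039. Over all 19 genes the median was 0.0098 in si-BAP1 and 0.031 in si-MBD5 cells, beside 4.7e-04 and 8.5e-05 over all genes tested. The median size of change was 0.033 and 0.056 log2 for HOX genes, and 0.071 and 0.065 for all genes. None of the 3 HOXD genes above the percentile passed in either comparison at an adjusted p of 0.05, nor at an unadjusted p below 0.05.

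**Figure D5:**
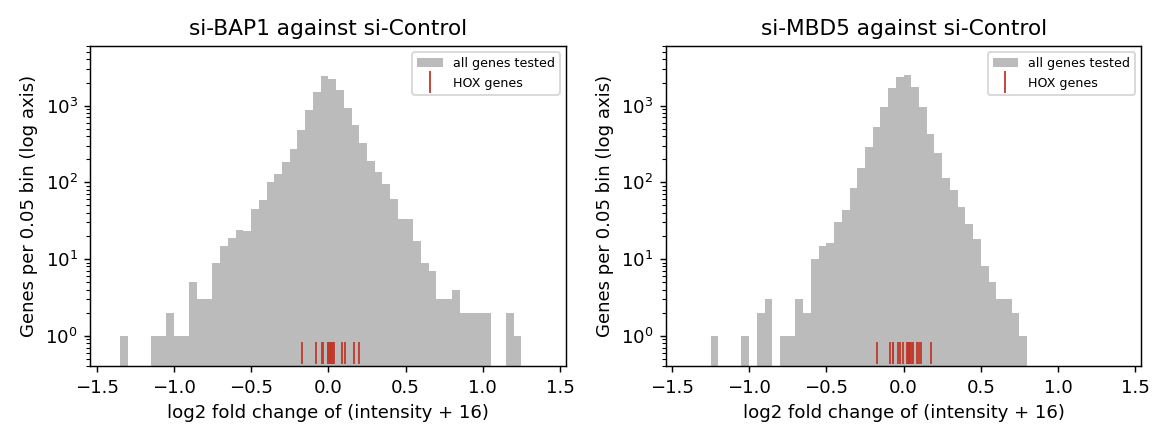
Distribution of log2 fold changes of all 12434 genes tested (grey bars, number of genes per bin on a log axis) with the 19 HOX genes as red ticks, in si-BAP1 (left) and si-MBD5 (right) against si-Control. The HOX ticks lie between -0.17 and 0.20, while all genes span -1.31 to 1.24 in si-BAP1 and -1.21 to 0.77 in si-MBD5 cells.

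Set against each other directly, the knockdowns differed in 1 of 19 HOX genes, where 9.97% of all genes passed (5.76% higher and 4.21% lower in si-BAP1). HOXB9 averaged 211 ± 9.3 in si-BAP1 and 186 ± 7.8 in si-MBD5 arrays (SD, n = 3 each), without overlap, with a log2 fold change of 0.17 (SE 0.047, limma adjusted p = 0.0379). That call was lost without any 1 of the 3 si-BAP1 arrays (adjusted p = 0.139, 0.0557 and 0.0750), without si-MBD5 replicate 1 (0.0764) or 3 (0.122) and without si-Control replicate 2 (0.0633). HOXC11 was 220.4 ± 4.6 in si-BAP1 against 194 ± 14 in si-MBD5 arrays (log2 0.17, SE 0.053, limma adjusted p = 0.0564), and it passed without si-MBD5 replicate 2 (adjusted p = 0.0256). HOXC6 was 633 ± 11 against 637 ± 20 (log2 -0.0082, limma adjusted p = 0.933). On its other bright probe set the si-BAP1 arrays lay below the si-MBD5 arrays without overlap (log2 -0.070, limma adjusted p = 0.345 over all probe sets). With each gene read from its brightest probe set, the arrays did not overlap for 4 of 19 HOX genes (21.1%), where this held for 25% of all genes.

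Genes that work with the HOX proteins or control the clusters were read from lists, beside the same share of all genes (23.5% in si-BAP1 and 16.3% in si-MBD5). TALE homeodomain proteins, the DNA-binding cofactors of HOX proteins, had 2 of 8 tested members higher and 1 lower in si-BAP1 cells (median log2 0.083). PBX4, a partner of HOX proteins on DNA, read 25.6 ± 1.9 against 32.6 ± 1.6 (log2 -0.22), PKNOX1 59.2 ± 6.5 against 49.0 ± 2.8 (log2 0.21) and MEIS1, a cofactor of posterior HOX proteins, 29.0 ± 1.7 against 23.3 ± 2.8 (log2 0.20, limma adjusted p = 0.0312). The si-Control mean of MEIS1 lay below 25.5, so MEIS1 passed the filter through the knockdown arrays and its call is given as a description only. PBX4, PKNOX1 and MEIS1 had means below the 60th percentile, 59.3, in all 3 groups, so a filter there removed them before testing. That 0 cofactors passed with this filter therefore cannot show whether these calls hold. In si-BAP1 cells 1 cofactor passed without si-BAP1 replicate 1 or 2 or si-Control replicate 1 or 3. In si-MBD5 cells 0 of 8 passed in limma, and 0 had an unadjusted p below 0.05.

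Among core subunits and accessory proteins of the Polycomb complexes, the repressors of HOX clusters, 7 of 20 tested were higher and 2 lower in si-BAP1 cells (median log2 0.015). KDM2B, which brings a PRC1 complex to CpG islands, read 220.5 ± 12 against 155 ± 3.9 (log2 0.47, limma adjusted p = 8.9e-06), and PHF19, a PRC2 accessory protein, 783 ± 30 against 585 ± 40 (log2 0.41). SUZ12, a core subunit of PRC2, had log2 0.27 and RBBP4, its histone-binding partner, 0.24. In si-MBD5 cells 2 of 20 were higher, KDM2B (log2 0.41) and PHF19 (0.27), and 2 lower, EED (log2 -0.17) and MTF2 (-0.13). EED was lower in si-BAP1 cells too (log2 -0.12, limma adjusted p = 0.0189). MTF2 went the other way there and was higher (log2 0.22, limma adjusted p = 5.4e-04). Between si-BAP1 and si-MBD5 directly, MTF2 differed by log2 0.35 (limma adjusted p = 4.2e-05). Of 16 tested genes of the KMT2 complexes and other HOX activators, 2 rose and 1 fell in si-BAP1 cells. They were AFF1, an elongation factor scaffold (log2 0.30), RBBP5, a core subunit of KMT2 complexes (log2 0.30), and PSIP1, the chromatin tether of KMT2A (log2 -0.22). In si-MBD5 cells RBBP5 rose (log2 0.18) and DPY30, another core subunit, fell (log2 -0.12). The si-BAP1 count of 3 was 5 without si-BAP1 replicate 2. The si-MBD5 count of 2 was 0 without si-MBD5 replicate 2, si-Control replicate 2 or si-Control replicate 3, and 1 without si-BAP1 replicate 1, si-MBD5 replicate 1 or 3, or si-Control replicate 1.

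Of 10 tested upstream regulators, the retinoic acid hydroxylase CYP26B1 (log2 0.36, limma adjusted p = 0.00270) and the insulator protein CTCF (log2 0.25) rose in si-BAP1 cells. In si-MBD5 cells GMNN, the replication inhibitor geminin that also binds HOX proteins, fell (1466 ± 43 against 1791 ± 17, log2 -0.29, limma adjusted p = 3.4e-05), as did the retinoid receptor RXRA (log2 -0.14); 1 of these passed without si-MBD5 replicate 1, si-Control replicate 1 or si-Control replicate 2. Of 18 tested genes that flank the clusters, 1 rose and 2 fell in si-BAP1 cells, and 1 rose and 3 fell in si-MBD5 cells. The si-BAP1 count of 3 was 5 without si-MBD5 replicate 3, and the si-MBD5 count of 4 was 2 without si-Control replicate 2 or 3. SKAP2, an adaptor protein gene beside the HOXA cluster, fell in both (383 ± 6.8 in si-BAP1 and 352 ± 11 in si-MBD5 against 459.7 ± 6.7 in si-Control, log2 -0.25 and -0.37, limma adjusted p = 2.4e-04 and 3.1e-05). In si-BAP1 cells SNX10, a sorting nexin gene on the same side, fell too (log2 -0.32) and LNPK, an endoplasmic reticulum protein gene beside the HOXD cluster, rose (log2 0.16). In si-MBD5 cells CBX5, the heterochromatin protein gene beside the HOXC cluster, fell (log2 -0.19), as did HIBADH, a valine catabolism enzyme gene beside HOXA (log2 -0.16), and HNRNPA1, a splicing factor gene beside HOXC, rose (log2 0.12). Of 18 listed noncoding transcripts of the clusters, 1 had a probe set, HOXB-AS3, at 26.2 ± 2.9 in si-BAP1, 26.2 ± 0.29 in si-MBD5 and 26.7 ± 1.2 in si-Control arrays (limma adjusted p = 0.855 and 0.878).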

How the data were processed

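RNA of 9 samples was measured on Affymetrix arrays. The authors deposited 1 linear intensity per probe set and array, made with MAS5 per the submitters' processing notes; the sources used here give neither the version nor any scaling between arrays. Symbols were brought up to date through gene identifiers with a RefSeq table (44961 matched, 27 kept as deposited). Promoter windows came from RefSeq on GRCh38.p14, and no array coordinates were used. Groups were taken from the sample titles.

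Tests ran on log2(intensity + 16). Probe sets with 1 symbol and a mean above the 40th percentile of all probe sets were kept, with the brightest standing for its gene, leaving 12434 genes. Limma 3.58.1 in R 4.3.3 fitted 3 group means to all 9 arrays (6 residual degrees of freedom), moderated by empirical Bayes with a mean-variance trend. P-values were Benjamini-Hochberg adjusted over all genes of a comparison, with a threshold of 0.05. The fit was also run on simulated data with independent noise and without the equal values between arrays. The changes planted there were larger than the HOX changes called, so recovery of changes of the HOX size was not tested. Plots used matplotlib 3.10.9 (Python 3.11.15).

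Every HOX gene was accounted for, those above the percentile by name, and those past the threshold array by array. Up to 4 members of each other list that passed were named, taken by size of change. The si-BAP1 values of EED and MTF2 were added because both passed in si-MBD5 cells. The array values of HOX genes that did not pass were chosen after their values were seen. These include single HOXB4, HOXB13, HOXD4, HOXD9 and HOXD13 probe sets. Alternatives changed the constant, the scaling between arrays, the filter, the choice of probe sets, the fit and, in turn, each array left out. The members, lists and rules were chosen with earlier results of these data known. The number of arrays limits precision: the median SE of a HOX fold change was 0.054 log2.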

Additional observations from a re-analysis of the deposited data

Results flagged for a closer look

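HOXB9 was singled out because its response differed between the knockdowns by the direct test. It stood 0.17 log2 higher in si-BAP1 than in si-MBD5 arrays (limma adjusted p = 0.0379), with all 3 si-BAP1 arrays above all 3 si-MBD5 arrays. It did not pass in 10 of 23 other settings, among them quantile normalization, no filter, the replicate block, only the 2 groups compared and leaving out any si-BAP1 array (adjusted p up to 0.139). Groups of 3 arrays are too small for a test of single outlying arrays.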

How the results depend on the processing

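Of the 23 alternatives, leaving out each of the 9 arrays included, none turned the sign of the HOX changes named as past the threshold. HOXB9 and HOXC6 against si-Control passed in all of them in si-BAP1 cells, and so did HOXC6 in si-MBD5 cells. Where every probe set was fitted on its own, these counts follow the brightest one. The other bright HOXC6 probe set passed there in neither si-BAP1 (limma adjusted p = 0.485) nor si-MBD5 cells (0.0762). HOXC13 passed in 19 and HOXC11, in si-MBD5 cells, in 11. HOXB9 passed in 13 when the knockdowns were compared directly, and not with the replicate block (adjusted p = 0.0605). In the fits per gene 13 of 19 HOX genes passed in no comparison and no setting. The count of HOX genes past the threshold in si-BAP1 cells, 3 as reported, was 4 with the mean of probe sets or array weights, and 2 to 3 with 1 array left out. In si-MBD5 cells, with 2 past the threshold as reported, it was 1 with median centring, no filter, every probe set fitted on its own, only the 2 groups compared or no intensity trend, and 1 to 2 with 1 array left out. Between the knockdowns, with 1 as reported, it was 0 with quantile normalization, no filter or only the 2 groups compared, 2 with a filter at the 60th percentile or array weights, 3 with the mean of probe sets, and 0 to 2 with 1 array left out. With every probe set fitted on its own, 4 HOX probe sets passed in si-BAP1, 1 in si-MBD5 and 2 between the knockdowns. Without a filter, chosen after the data were seen, the last count was 0, and 1 without the added constant as well. The cause of these moves was not tested. At the 60th percentile 12 HOX genes, 2 of them HOXB, were above background, and 17 without _x_at and _s_at probe sets; leaving out any array kept 19. Over all genes, counts past the threshold were 5984, 3711 and 2275 in the 3 comparisons with every probe set fitted on its own, since more features were tested, and 4492, 3081 and 1837 with array weights. They were 1269 in si-MBD5 without si-Control replicate 2, and 756 and 721 between the knockdowns without si-BAP1 replicate 3 or si-MBD5 replicate 1. With quantile normalization the split turned to 1516 higher and 1567 lower in si-BAP1, 1108 and 1055 in si-MBD5, and 603 and 711 between the knockdowns. Deviations of same-numbered arrays had correlations of -0.40 to 0.43, over 0.1 in 3 of 9 pairs, and 3 of 9 arrays were closest to their own number. With 3 arrays a group, these values cannot show whether the replicate number pairs arrays. With the replicate block 3 HOX genes passed in si-BAP1, 2 in si-MBD5 and 1 between the knockdowns, HOXC11 (adjusted p = 0.0326).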
